A study of Mus musculus with 12 samples.

Results

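Gene expression in erythroid precursors was compared between 3 arrays labelled E2f8 KO and 3 labelled WT, 6 of the 12 arrays of the series, with every gene that could be tested taken as a member (12980 genes, from 35557 probe sets). Spleen cells of mice aged 3 months had been sorted on Ter119 and on high CD71, which selects nucleated red cell precursors. The WT mice carry neither deletion, the E2f8 KO mice lack E2f8, the Rb KO mice lack Rb and the DKO mice lack both, each as labelled and each with 3 biological replicates. The sources used here do not give strain, sex, the deleted parts of the genes or any Cre driver, nor whether animals were pooled. All values below are log2 signals of a probe set or differences between log2 signals, so that a difference of 1 is a doubling. Signals of different genes were not compared with each other, since probe sets differ in brightness.

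E2f8 encodes an atypical E2F factor. It binds E2F sites without a DP partner and represses genes needed for DNA replication and mitosis, many of which the activator E2Fs switch on. The retinoblastoma protein, made from Rb1, holds the activator E2Fs in check until a cell commits to S phase. Erythroblasts divide rapidly while they fill with hemoglobin, then leave the cell cycle, clear their organelles and lose the nucleus, so that cell cycle genes and maturation genes are normally used one after the other.

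The targeted genes were read first, as a check of the labels. The E2f8 signal went against the label of these arrays, and the Rb1 signal was lowest in them, although their label does not name Rb. The E2f8 probe set read 12.28, 11.70 and 11.88 in the WT arrays and 12.89, 12.81 and 12.74 in those labelled E2f8 KO, which all lay above WT by 0.86 ± 0.19 (SE, n = 3 per group, adjusted p = 0.00728). Rb1 stood at 13.02, 12.74 and 12.71 in WT and at 11.74, 11.68 and 11.72 in the arrays labelled E2f8 KO. It was lower there by 1.11 ± 0.11 (adjusted p = 0.000154), a 2.165-fold difference with no overlap. Set directly against the arrays labelled Rb KO, those labelled E2f8 KO had less Rb1 signal, by -0.71 ± 0.11 (adjusted p = 0.00165), and more E2f8 signal, by 0.63 ± 0.19 (adjusted p = 0.0284). Against WT, limma did not call Rb1 in the arrays labelled Rb KO (-0.41 ± 0.11, adjusted p = 0.394) but called it lower in DKO (-0.70 ± 0.11, adjusted p = 0.000483). E2f8 was not called in Rb KO (0.23 ± 0.19) and was higher in DKO (1.18 ± 0.19, adjusted p = 0.000478). A probe set outside the deleted part of a gene checks nothing, and the sources used here do not say where these probe sets lie. The group is therefore called by its label throughout, and every direction below rests on that label. In addition, replicate 3 of E2f8 KO had an Xist signal of 5.22, against 11.69 to 12.03 in the other arrays of the comparison, and an Eif2s3y signal of 8.17 against 3.05 to 3.32. It was the only one of these 6 arrays with a signal of that Y-linked gene above 3.32. The Y-linked genes Uty (7.98) and Kdm5d (6.11) were also highest in this array. Sex-linked signals were thus not balanced between the labels. The count over all genes without this array is given below, as are the counts of some lists.

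**Figure D1:**
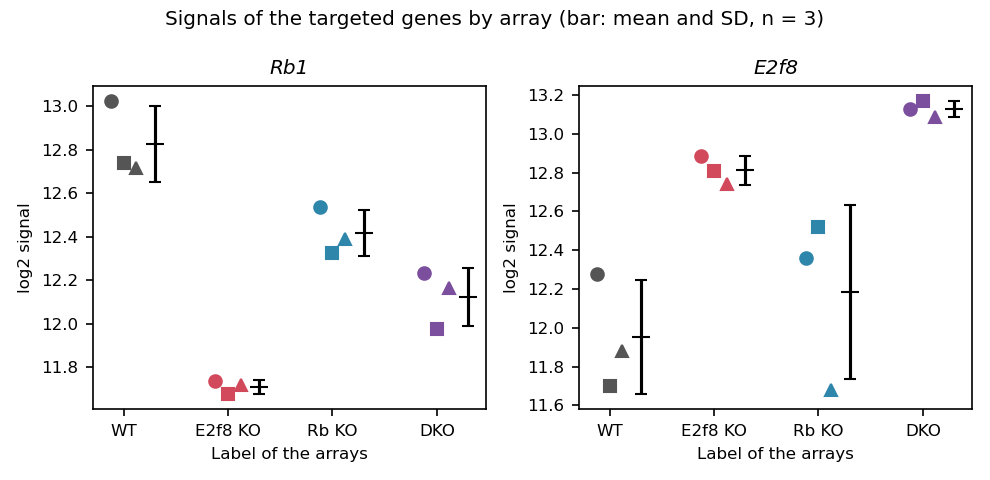
Log2 signals of Rb1 (left) and E2f8 (right) in each array, by label, with circles, squares and triangles for replicates 1, 2 and 3 and bars for the mean and SD of 3 arrays. The arrays labelled E2f8 KO are the lowest in Rb1, between 11.68 and 11.74, and lie above all WT arrays in E2f8.

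Over all genes tested, 3388 differed between the labels at an adjusted p under 0.05 in limma (26.1% of genes), with 1543 higher (11.9%) and 1845 lower (14.2%) in the arrays labelled E2f8 KO. All 3 of these arrays lay above all 3 WT arrays in 22.3% of genes and below them in 23.5%. The share of higher genes among the calls was 45.5%. It was 55.9% with each array centred on its median and 31.5% with each array centred on a reference list of erythroid genes, so the balance of directions depends on the scaling. The median difference of all genes was 0.06, 0.17 and -0.18 under these scalings. The count fell to 1531 without WT replicate 2 and to 1882, 2033 and 2200 without E2f8 KO replicate 1, 2 or 3. Replicates correlated more closely in E2f8 KO (Pearson's r across genes 0.990 to 0.992) than in WT (0.966 to 0.976). For each group of genes below, the counts of members that rose or fell are to be read against the 11.9% and 14.2% of all genes.

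Markers of other spleen cells differed widely between the labels. All 17 measured B cell markers fell (median difference -3.26), along with 7 of 8 genes of MHC class II antigen presentation (4 without WT replicate 2), 10 of 14 T cell, 14 of 21 macrophage and monocyte and 7 of 11 dendritic cell markers. The mean of the B cell list was 10.34, 11.31 and 9.80 in the WT arrays and 7.12, 7.32 and 7.46 in those labelled E2f8 KO, so WT replicate 2 was the richest in these transcripts and the groups did not overlap. Fcer2a, the low-affinity IgE receptor of follicular B cells, stood at 10.19, 11.70 and 9.58 in WT and at 6.23, 6.29 and 6.82 in E2f8 KO. This difference of -4.05 ± 0.72 (adjusted p = 0.00269) was 16.5-fold. Cr2, a complement receptor of B cells, fell by 3.43 ± 0.55. H2-Aa, a chain of an MHC class II molecule, fell by 2.61 ± 0.35, whereas H2-Eb1 showed no call, at -0.30 ± 0.76. Its WT arrays stood at 8.94, 12.07 and 8.31, so that replicate 2 alone was high.

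Macrophages of the spleen surround erythroblasts, supply them with iron and take up the nuclei they extrude. Of their genes, Vcam1, which tethers erythroblasts to the central macrophage, had signals of 11.38, 11.96 and 11.11 in WT and 9.85, 9.65 and 9.98 in E2f8 KO, a fall by 1.65 ± 0.22 (adjusted p = 0.000615). Axl, a receptor for dying cells, fell by 1.65 ± 0.19, Csf1r, the receptor for the macrophage growth factor, by 2.004 ± 0.25, and Spic, the regulator of red pulp macrophages, by 1.57 ± 0.30. Lyz2, lysozyme of myeloid cells, did not differ detectably (0.07 ± 0.70). Cd4 and Cd3g of T cells fell by 2.63 ± 0.30 and 2.51 ± 0.29. Cd3g averaged 5.68 in E2f8 KO and 4.87 in DKO, below the filter level of 5.84 that the mean over all arrays had to exceed. It was tested only because WT and Rb KO were high, so its fall is a description. With the lowest 60% of probe sets removed, 5 T cell markers were left and 4 of them fell. Cd209a, a lectin of dendritic cells, fell by 3.09 ± 0.30. In sorted bulk cells, fewer cells of a type and less RNA per cell cannot be told apart.

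Granulocyte markers moved the other way. Of 18 measured, 10 rose and 0 fell, with a median of 1.83, and 16 had all 3 E2f8 KO arrays above WT. The number that rose was 5, 4 and 6 without WT replicate 1, 2 or 3 and 5, 4 and 7 without E2f8 KO replicate 1, 2 or 3. Ngp, a granule protein of immature neutrophils, had signals of 8.86, 8.75 and 8.77 in WT and 12.18, 12.21 and 11.69 in E2f8 KO. It was higher by 3.24 ± 0.61 (adjusted p = 0.00345), or 9.42-fold. S100a9, of the calcium-binding pair of neutrophils, was higher by 3.37 ± 0.72. The list averaged 6.18 to 6.33 in the WT arrays and 7.86 to 8.31 in those labelled E2f8 KO. These WT means lie near the filter level of 5.84, so some members may have been tested only because other groups were high. With the lowest 60% of probe sets removed, 9 granulocyte markers were left and 8 of them rose. The counts for this list are therefore a description. Among 9 megakaryocyte and platelet markers 0 passed the test in limma (3 had an unadjusted p under 0.05, median 0.10). Without WT replicate 3, 1 rose and 1 fell, and 1 fell without WT replicate 1 or E2f8 KO replicate 3, and leaving out 1 array moved the median between -0.048 and 0.16. Of 9 endothelial and stromal markers 1 fell, Pecam1, which leukocytes also carry, by 2.14 ± 0.44. Of 5 mast cell, basophil and eosinophil markers 1 fell, the eosinophil chemokine receptor Ccr3, by 1.28 ± 0.22, and 1 rose without WT replicate 3. Plasma cell and NK cell lists had 3 of 9 and 3 of 5 members that fell, the latter 1 without WT replicate 1 or E2f8 KO replicate 1. Irf4, a regulator of B and plasma cells, fell by 2.83 ± 0.52.

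**Figure D2:**
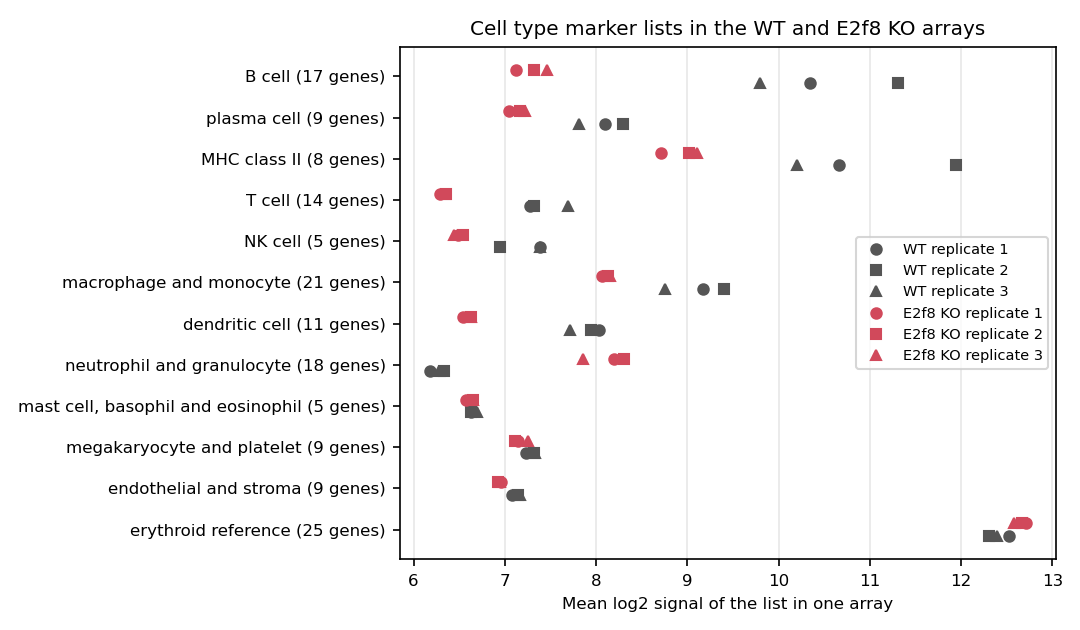
Mean log2 signal of each cell type marker list in each WT array (grey) and each array labelled E2f8 KO (red), with the number of genes measured beside the list name. The B cell list separates from 9.80 to 11.31 in WT to 7.12 to 7.46 in E2f8 KO, the granulocyte list lies higher in E2f8 KO, and the erythroid reference list lies between 12.31 and 12.71 in all 6 arrays.

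Because the leukocyte lists moved with the label, each comparison was also fitted with an added term, the array's own mean over the B cell list (called the B cell covariate below). The slope on it comes from differences between arrays of one label, chiefly those labelled Rb KO, whose list means were 9.21, 11.54 and 11.47, and it is carried over the distance between WT and E2f8 KO. The median standard error rose from 0.184 to 0.320, and 300 genes were called, 127 higher and 173 lower. Lost calls under the covariate therefore do not show that a gene was unchanged. Values with the covariate are given for the erythroid and cell cycle groups below, and the part of other cells in each result was not tested beyond them.

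The sorted cells carried erythroid transcripts at high signals in both groups. The erythroid reference list (25 genes) averaged 12.53, 12.31 and 12.40 in WT and 12.71, 12.66 and 12.58 in E2f8 KO, with a median difference of 0.11 (0.19 without WT replicate 1). Slc4a1, the anion exchanger band 3 and the main membrane protein of red cells, stood at 14.22, 14.19 and 14.20 in WT and 14.25, 14.22 and 14.18 in E2f8 KO, a difference of 0.01 ± 0.06. These signals lie near the highest value of the table, 14.84, where an array can compress differences. Tfrc, which encodes the CD71 used in the sort, had a difference of 0.41 ± 0.21 (adjusted p = 0.168). Gata1 and Klf1, the master regulators of the lineage, lay 0.52 ± 0.22 and 0.40 ± 0.20 above WT on average and were not called (adjusted p = 0.0948 and 0.168). Of the globin list, 4 of 12 genes had a usable probe set, and 0 passed the test in limma (0 at an unadjusted p under 0.05, median -0.21). They were Hba-x, Hbb-y, Hbq1a and Hbq1b, so the adult globins were not read here. The median was -0.06 without WT replicate 3 and -0.13 without E2f8 KO replicate 2.

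Hemoglobin supply genes changed little and in both directions. Of 18 heme synthesis genes, 1 rose and 3 fell (median 0.21, turning to -0.03 with arrays centred on the erythroid reference and to -0.54 with the B cell covariate). Its median was 0.37 without WT replicate 1 and 0.09 without WT replicate 2. The rate-limiting erythroid enzyme gene Alas2 had signals of 14.12, 14.29 and 14.32 in WT and 14.04, 13.94 and 13.95 in E2f8 KO, a difference of -0.27 ± 0.07 (adjusted p = 0.0161). Fech, which inserts the iron, differed by -0.40 ± 0.10 (adjusted p = 0.0157), and Cpox, of an earlier step, by 0.55 ± 0.18 (adjusted p = 0.0423). None of these 3 calls held in every fit that left out 1 array, and Alas2 and Fech also lost theirs with arrays centred on their medians (adjusted p = 0.318 and 0.159), where 0 of the list fell. Alas2 lost its call without WT replicate 2 or 3 or E2f8 KO replicate 2 or 3 (adjusted p = 0.0733, 0.0518, 0.0606 and 0.0566). Fech lost it without WT replicate 2 or 3 or E2f8 KO replicate 2 (0.0625, 0.0548 and 0.0606). Cpox lost it without WT replicate 2 or 3 or E2f8 KO replicate 1, 2 or 3 (0.165, 0.0895, 0.099, 0.127 and 0.0733). Among heme genes 2 rose without WT replicate 1 and 0 without each other array, and the number that fell was 0 without WT replicate 2 or 3 or E2f8 KO replicate 2, and 1 without E2f8 KO replicate 3.

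Iron handling showed the same mixture, with 4 of 20 genes higher and 5 lower (3 lower without E2f8 KO replicate 2 or 3). It was 3 lower with arrays centred on their medians and 1 higher with arrays centred on the erythroid reference. Under the B cell covariate 0 were higher and 2 lower, and the median moved from 0.03 to -0.26. Ncoa4, the receptor that sends ferritin to autophagy and so frees iron for heme, stood at 13.35, 13.53 and 13.67 in WT and 12.77, 12.78 and 12.67 in E2f8 KO. It fell by 0.77 ± 0.11 (adjusted p = 0.000768), and by 0.99 (adjusted p = 0.0177) with the B cell covariate. Pcbp1 and Pcbp2, chaperones that hand iron to ferritin, rose by 0.65 ± 0.14 and 0.39 ± 0.08. Erfe, the hormone by which erythroblasts lower hepcidin in the liver, had signals of 6.999, 7.42 and 7.17 in WT against 7.76, 8.27 and 8.52 in E2f8 KO, higher by 0.99 ± 0.20 (adjusted p = 0.00536). Trf, the serum iron carrier transferrin, fell by 1.63 ± 0.30. Its WT order (10.58, 11.09 and 9.89) had replicate 2 highest, as in the B cell list.

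Of 27 membrane and skeleton genes, 5 rose and 3 fell (median 0.22, -0.02 with arrays centred on the erythroid reference and -0.33 with the B cell covariate). Leaving out WT replicate 2 or E2f8 KO replicate 3 left 1 that rose, and leaving out E2f8 KO replicate 1 or 2 left 0. The median was 0.11 without WT replicate 2, and 3 rose and 5 fell with arrays centred on the erythroid reference. Mpp1, the palmitoylated skeleton protein p55, stood at 12.98, 13.33 and 13.24 in WT and 12.28, 12.16 and 12.17 in E2f8 KO, a fall by 0.98 ± 0.13 (adjusted p = 0.000552). It was the only member of this list called with the B cell covariate, at -1.26 (adjusted p = 0.0131). Slc2a1, the glucose transporter GLUT1, fell by 2.33 ± 0.49, but its difference was 0.35 with the B cell covariate.

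Among 28 erythroid transcription factors and cofactors, 8 rose and 3 fell (median 0.33). Without WT replicate 2, 4 rose, and without E2f8 KO replicate 1, 2 or 3, 5, 4 and 5 rose. The number that fell was 1 without WT replicate 3 or E2f8 KO replicate 1, and 0 without each other array, 1 with arrays centred on their medians and 5 with arrays centred on the erythroid reference. Lyl1, a relative of Tal1 in the stem and progenitor complex, had signals of 10.90, 10.73 and 10.78 in WT and 11.74, 11.84 and 11.59 in E2f8 KO, a rise by 0.92 ± 0.13 (adjusted p = 0.00092). Gfi1b, a repressor required for erythroid maturation, rose by 0.63 ± 0.14. Kmt5a, the histone H4 methyltransferase of chromatin condensation, stood at 11.24, 11.20 and 11.17 in WT and 12.06, 12.08 and 11.97 in E2f8 KO, higher by 0.83 ± 0.16. Nfe2l2, the regulator of the antioxidant response, rose by 0.79 ± 0.15. Of the 3 that fell, Bcl11a stood at 10.02, 10.71 and 9.54 in WT and 8.49, 8.83 and 8.96 in E2f8 KO. It was lower by 1.33 ± 0.43 (adjusted p = 0.0364), and kept its call only in the fit without WT replicate 3. Its WT arrays had replicate 2 highest, as in the B cell list, and its difference was 0.82 with the B cell covariate. With the B cell covariate 0 of the 28 were called in limma (7 at an unadjusted p under 0.05), and their median was -0.05. E2f2 and E2f4, the E2Fs best known in red cell development, had differences of -0.0001 ± 0.12 and 0.37 ± 0.15, and neither was called.

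Late maturation genes fell more often than they rose. In late maturation, organelles, the nucleus and ribosomes are cleared through ubiquitin and autophagy. Of 33 measured, 18 fell and 3 rose (median -0.31), and 19 had all 3 E2f8 KO arrays below WT. The scaling bore on this count, with 8 lower (median -0.20) with arrays centred on their medians and 20 lower and 1 higher (median -0.55) with arrays centred on the erythroid reference. Only 1 rose without WT replicate 2 or E2f8 KO replicate 1 or 2. Under the B cell covariate 12 were called lower and 1 higher, and the median was -0.83. Bpgm, which makes the metabolite that lowers oxygen affinity of hemoglobin, stood at 12.80, 13.29 and 13.24 in WT and 11.82, 11.64 and 11.43 in E2f8 KO, a 2.78-fold difference. Rnf10, a ubiquitin ligase gene, stood at 13.77, 13.92 and 14.06 against 13.13, 13.15 and 13.05, and fell by 0.80 ± 0.09 (adjusted p = 0.000256). The groups of both genes were far apart compared with their spread.

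Riok3, a kinase gene needed for nuclear condensation and extrusion, had signals of 12.17, 12.38 and 12.67 in WT and 11.33, 11.06 and 11.14 in E2f8 KO. It fell by 1.23 ± 0.17 (adjusted p = 0.000804). Trim10, an erythroid E3 ligase of the TRIM family, stood at 12.81, 12.75 and 12.79 against 12.26, 12.28 and 12.06, a fall by 0.58 ± 0.13. Fbxo9, a substrate adaptor of a ubiquitin ligase, fell by 0.75 ± 0.15. Bnip3l, the mitochondrial receptor that marks mitochondria for autophagy in reticulocytes, fell by 0.31 ± 0.07 from signals near the top of the scale (14.08, 14.25 and 14.30 in WT). Rnf11 fell by 1.52 ± 0.23. With the B cell covariate the differences of Rnf10, Riok3, Trim10 and Fbxo9 were -0.83, -1.32, -1.08 and -1.29 and all 4 passed the test, whereas Bnip3l (-0.31) and Rnf11 (-1.69) did not. Trim10 and Bnip3l lost their calls with arrays centred on their medians (adjusted p = 0.0563 and 0.213). Plek2, a regulator of actin in late erythroblasts, went against the list, from 10.16, 9.71 and 9.65 in WT to 12.29, 12.26 and 12.20 in E2f8 KO. This 5.30-fold difference was the only higher call of the list with the covariate, at 1.85 (adjusted p = 0.0116).

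Genes of the erythropoietin receptor pathway had no common direction, with 3 of 22 higher and 5 lower. Under the B cell covariate 1 was higher and 1 lower, with a median of 0.16. The number that rose was 1 without WT replicate 2 and 1 with arrays centred on the erythroid reference. The number that fell was 2 and 1 without WT replicate 1 or 2, and 1, 1 and 3 without E2f8 KO replicate 1, 2 or 3. Epor itself had signals of 11.41, 11.11 and 11.38 in WT and 12.22, 12.16 and 12.08 in E2f8 KO, a difference of 0.86 ± 0.21 (adjusted p = 0.0126) that was 0.76 (adjusted p = 0.0599) without WT replicate 2 and -0.04 with the B cell covariate. Of 17 early erythroid and progenitor genes, 2 rose and 6 fell (median -0.48, but 0.26 with the B cell covariate). With that covariate 1 of the 17 was called higher and 0 lower. The number that fell was 3 and 2 without WT replicate 1 or 2 and 3 without E2f8 KO replicate 1 or 2. In each fit that left out an array other than WT replicate 1, 1 rose, as it did with arrays centred on the erythroid reference. Kit, the stem cell factor receptor that erythroblasts lose as they mature, stood at 8.22, 7.67 and 7.67 in WT and 6.72, 6.88 and 6.72 in E2f8 KO, and fell by 1.08 ± 0.21 (adjusted p = 0.00402). Flt3, a receptor of lymphoid progenitors and dendritic cells, fell by 0.81 ± 0.20.

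**Figure D3:**
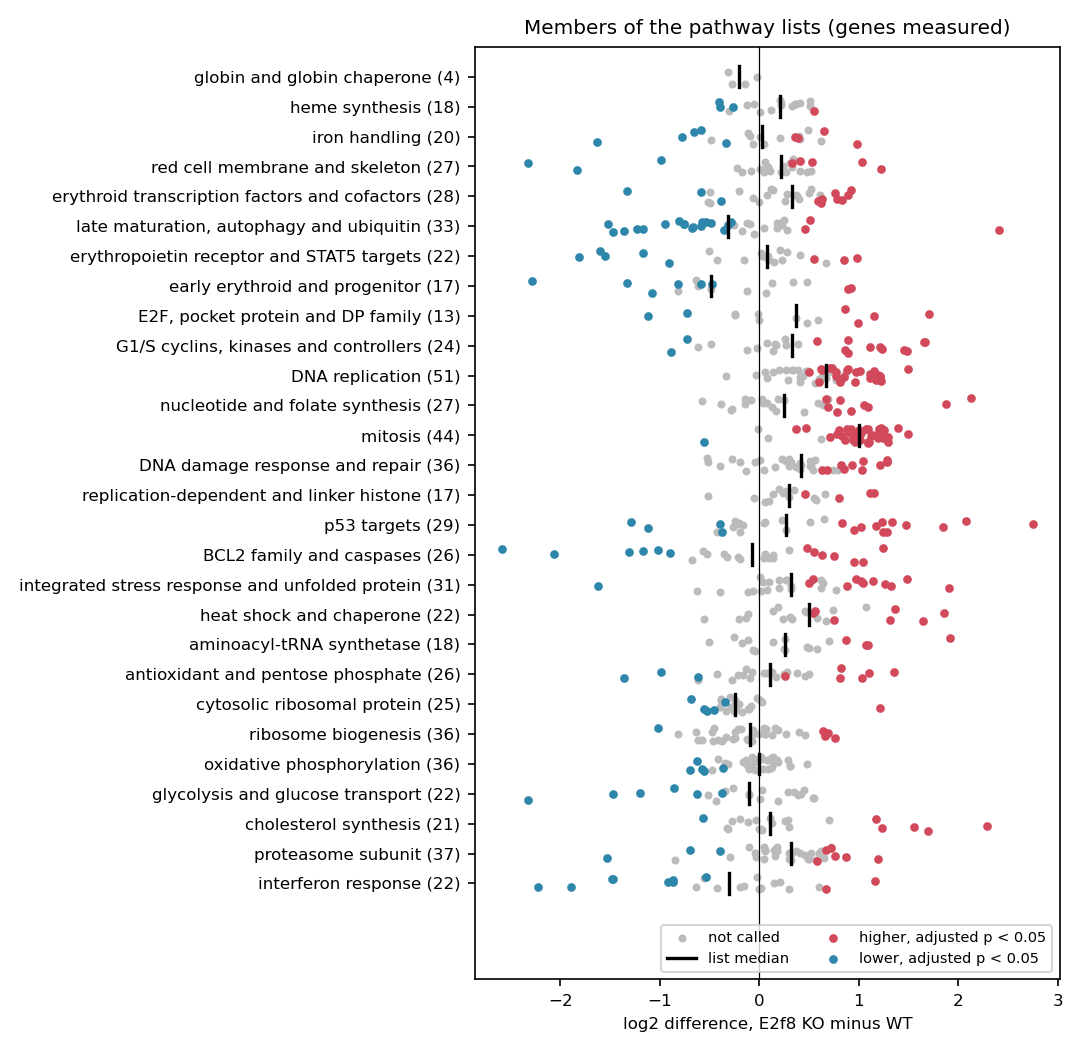
Log2 difference, E2f8 KO minus WT, of every measured member of the 28 pathway lists, with higher calls in red, lower calls in blue, genes without a call in grey and a black line at the list median. Mitosis and DNA replication lie mostly to the right (medians 1.01 and 0.68), and late maturation lies mostly to the left (median -0.31).

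Cell cycle genes were higher in the arrays labelled E2f8 KO. In the E2F, pocket protein and DP family itself, 4 of 13 genes rose (E2f1, E2f6, E2f7 and E2f8) and 2 fell (Rb1 and Rbl2). The number that fell was 1 without WT replicate 1 or 2 or E2f8 KO replicate 1, where Rbl2 lost its call. E2f7, the other atypical E2F, stood at 10.25, 9.82 and 9.82 in WT and 11.18, 11.08 and 11.10 in E2f8 KO, higher by 1.16 ± 0.25 (adjusted p = 0.00603). E2f6, a repressor that lacks the pocket protein site, rose by 1.71 ± 0.37, and E2f1, an activator, by 0.99 ± 0.23. Under the B cell covariate only Rb1 of this family was called, at -1.30 (adjusted p = 0.00897).

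Promoter sequences were examined because E2F sites and the CHR element are the sequences through which E2F and DREAM complexes act on such genes. RefSeq windows of GRCm38.p6, from 250 bases before to 50 bases after a start site, were found for 10317 of the 12980 genes (13005 windows). The E2F letters searched, on both strands, were TTTCCCGC, TTTGGCGC, TTTCGCGC and TTTGCCGC. The CHR letters were TTTGAA, and the CCAAT box was searched as CCAAT. Stretches upstream of the start site are shown for genes whose values are given here, on the strand of the gene, with matches to E2F or CHR letters in capitals.
E2f8 (chr7:48881597-48881636, minus strand): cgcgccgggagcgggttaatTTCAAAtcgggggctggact
E2f7 (chr10:110745221-110745268, plus strand): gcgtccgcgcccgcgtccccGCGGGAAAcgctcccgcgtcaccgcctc
Cdk2 (chr10:128705164-128705211, minus strand): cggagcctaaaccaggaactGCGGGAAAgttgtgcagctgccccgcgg
Cdc25a (chr9:109875492-109875539, plus strand): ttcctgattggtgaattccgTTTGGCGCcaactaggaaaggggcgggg
Cdk1 (chr10:69352913-69353063, minus strand): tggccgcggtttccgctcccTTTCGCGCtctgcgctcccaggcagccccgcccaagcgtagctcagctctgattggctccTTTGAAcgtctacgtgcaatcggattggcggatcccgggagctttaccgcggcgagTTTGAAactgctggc
Upstream of its start site, E2f8 holds CHR letters 20 bases before that site and none of the E2F letters. For these single genes the 50 bases after the start site were not searched, whereas the shares given next use whole windows. E2f7 and Cdk2 hold TTTCCCGC on the opposite strand, Cdc25a holds TTTGGCGC, and Cdk1 holds TTTCGCGC and 2 copies of TTTGAA.

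E2F letters were found in 8.51% of the windows of genes that rose, 2.38% of those of genes that fell, 3.24% of those of genes not called and 3.75% of all windows of tested genes. On the lists they were in 31.9% of DNA replication windows and 7.32% of mitosis windows. CHR letters were in 70.7% of mitosis windows, against 16.6% for genes that rose, 11.9% for genes that fell and 11.9% for all tested genes. CCAAT was in 78.0% of mitosis windows and 36.8% of all. GATA letters (AGATAA or TGATAA), bound by erythroid GATA factors, were in 8.32% of windows of genes that rose and 13.3% of those that fell, against 10.7% of all. A match is a description of the letters in a window and not a bound site.

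Among G1/S genes, 11 of 24 rose and 2 fell (1 without each single array but WT replicate 3). Cdk2, the kinase that starts S phase, had signals of 10.61, 9.86 and 10.21 in WT and 11.67, 11.68 and 11.71 in E2f8 KO. Cdc25a, the phosphatase that activates it, stood at 9.81, 9.14 and 9.21 against 10.48, 10.53 and 10.50, higher by 1.12 ± 0.23 (adjusted p = 0.00478). Skp2, which targets the inhibitor p27 for degradation, rose by 1.48 ± 0.26 and Wee1, the kinase that holds back mitotic entry, by 1.24 ± 0.22. The inhibitor gene Cdkn2d rose as well, by 1.67 ± 0.32. The 2 that fell were Ccnd1, cyclin D1, by 0.89 ± 0.20, and Ccnd2, cyclin D2, by 0.73 ± 0.22. Some genes that drive the cell cycle and some that restrain it were thus higher, while these D cyclins were lower. The E2f8 KO arrays of Cdk2 differed among themselves by far less than the WT arrays.

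Of 51 DNA replication genes, 26 rose and 0 fell (median 0.68), and 37 had all 3 E2f8 KO arrays above WT. The number that rose was 5 and 13 without WT replicate 2 or 3, and 7, 14 and 12 without E2f8 KO replicate 1, 2 or 3. Rpa2, of the complex that coats single-stranded DNA, stood at 9.79, 9.23 and 9.36 in WT and 11.02, 10.90 and 10.94 in E2f8 KO, higher by 1.495 ± 0.23 (adjusted p = 0.00124). Rpa1, its partner, rose by 1.18 ± 0.25 and Cdc7, the kinase that fires origins, by 1.17 ± 0.26. Nucleotide synthesis had 9 of 27 higher and 0 lower (median 0.25, and 5 higher without WT replicate 2 or E2f8 KO replicate 1 or 2). Its median was 0.44 without WT replicate 1 and 0.15 without WT replicate 3, and 1 fell with arrays centred on the erythroid reference. Tyms, which makes thymidylate, rose by 1.098 ± 0.25 and Rrm2, of ribonucleotide reductase, by 0.82 ± 0.19. Among the WT arrays, replicate 1 was the highest in 51 of the 51 replication genes and replicate 2 the lowest in 39.

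Of 44 mitosis genes, 39 rose and 1 fell (median 1.01). Among the WT arrays, replicate 1 was the highest in 41 of the 44 and replicate 2 the lowest in 34. In all, 9 rose without WT replicate 2 and 20, 24 and 24 without E2f8 KO replicate 1, 2 or 3. Ndc80, of the kinetochore complex that holds microtubules, had signals of 8.79, 7.89 and 8.30 in WT and 9.79, 9.87 and 9.79 in E2f8 KO, higher by 1.49 ± 0.32 (adjusted p = 0.00626). Cdk1, the mitotic kinase, was higher by 1.02 ± 0.25 (adjusted p = 0.0108), and by 0.91 (adjusted p = 0.0528) without WT replicate 2. Foxm1, the transcription factor of the G2/M program, rose by 1.14 ± 0.23 and Aurkb, the kinase of cytokinesis, by 0.94 ± 0.20. Cdc25b, a phosphatase of mitotic entry, stood at 12.42, 12.61 and 12.83 in WT and 11.98, 12.06 and 12.14 in E2f8 KO, the single fall, by 0.56 ± 0.13. Under the B cell covariate the mitosis median became -0.07, that of DNA replication -0.14, that of G1/S genes 0.16 and that of nucleotide genes 0.09. limma then called 0 members of these 4 lists, with 2, 2, 1 and 3 at an unadjusted p under 0.05. The late maturation and mitosis lists differed in how many calls remained with the covariate. Both medians moved down, from -0.31 to -0.83 and from 1.01 to -0.07. Under a downward move falls can keep their calls while rises lose theirs. The calls that remained therefore cannot compare these lists, and the difference between them was not tested.

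**Figure D4:**
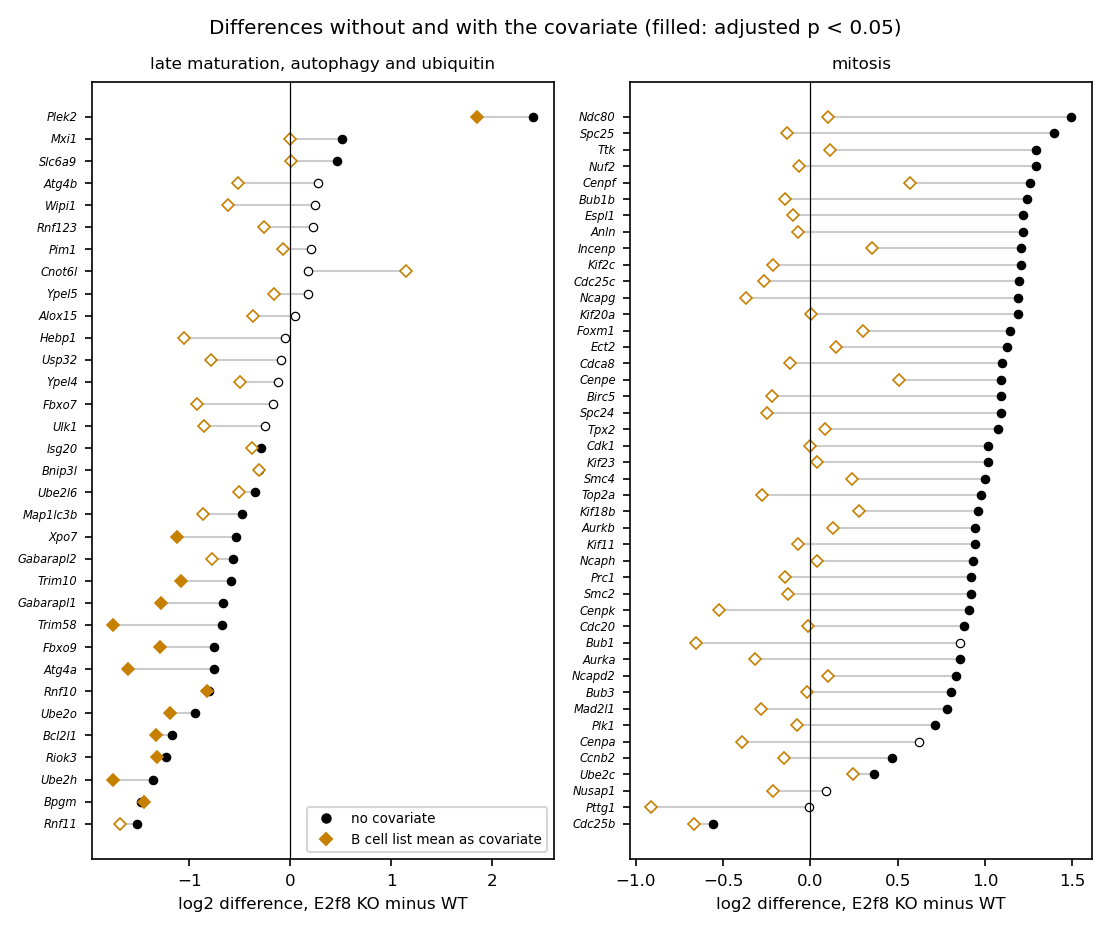
Log2 difference, E2f8 KO minus WT, of each member of the late maturation list (left) and the mitosis list (right), without a covariate (black circles) and with the B cell covariate (orange diamonds). Filled symbols passed the test. With the covariate 13 late maturation genes are filled, 12 of them lower, and 0 mitosis genes. The medians of both lists are lower with the covariate, so the filled symbols cannot compare the lists.

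Of 36 DNA damage response and repair genes, 10 rose and 0 fell (median 0.42). Only 3 rose without WT replicate 2 and 4 without E2f8 KO replicate 1, and without WT replicate 3 the number that fell was 2. Clspn, the adaptor of the replication checkpoint, rose by 1.28 ± 0.26, Fancm, a Fanconi anemia helicase, by 1.21 ± 0.26, and Uhrf1, which guides maintenance methylation, by 1.04 ± 0.18. Of 17 histone and histone supply genes 4 rose (2 without WT replicate 2, and 1 fell without E2f8 KO replicate 1), among them H2ax, the damage-marked histone, by 1.11 ± 0.21 and Slbp, which processes histone mRNA, by 1.15 ± 0.22. With the covariate 0 members of these lists were called in limma (4 and 2 at an unadjusted p under 0.05), and the medians were -0.05 and -0.29.

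Stress and death genes moved in part in opposite directions. Of 29 p53 targets 12 rose and 4 fell (2 fell in each fit that left out 1 array), with a median of 0.27 (0.45 without E2f8 KO replicate 3). It was 2 that fell under either centring of the arrays. Ccng1, a p53-induced cyclin, stood at 10.80, 10.41 and 10.20 in WT and 11.62, 11.98 and 12.23 in E2f8 KO, higher by 1.47 ± 0.20 (adjusted p = 0.000697). Aen, a nuclease gene induced by p53, rose by 1.28 ± 0.17, Bbc3, the BH3-only gene Puma, by 1.25 ± 0.22, and Trp53inp1 by 1.17 ± 0.15. Mdm2, the ligase that degrades p53, stood at 9.59, 9.32 and 9.07 in WT and 10.06, 10.15 and 10.26 in E2f8 KO, higher by 0.83 ± 0.18. Under the B cell covariate 4 of the 29 were called, all higher: Aen (1.55), Ccng1 (2.09), Eda2r (2.17) and Phlda3 (2.19). Mean signals of Eda2r were 5.29 in WT and 5.32 in Rb KO, below the filter level of 5.84, so it was tested only because other groups were high.

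In the BCL2 family and caspases, 7 of 26 rose and 6 fell (with 2 and 3 higher without WT replicate 2 or E2f8 KO replicate 2, and 4 higher with arrays centred on the erythroid reference). Bcl2l11, the proapoptotic gene Bim, had signals of 9.02, 8.67 and 8.71 in WT and 9.88, 9.80 and 9.86 in E2f8 KO, a rise by 1.04 ± 0.15 (adjusted p = 0.00095). Bcl2l1, which encodes the survival protein of erythroblasts, stood at 12.61, 12.78 and 12.93 against 11.66, 11.64 and 11.50, and was called with the covariate at -1.33 (adjusted p = 0.0149). Bcl2, abundant in lymphocytes, fell by 2.59 ± 0.50 in the usual fit and had a difference of 0.20 with the covariate. Bcl2l11 and Bbc3 were not called with the covariate (0.98 and 0.91, adjusted p = 0.107 and 0.308), which left 0 of the 26 higher and 1 lower in limma, with 3 at an unadjusted p under 0.05.

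Of 31 genes of the integrated stress and unfolded protein responses, 11 rose and 1 fell (0 fell without WT replicate 1 or 2 or E2f8 KO replicate 1), with a median of 0.32 (0.51 without WT replicate 1). Atf4, the transcription factor of the integrated stress response, rose by 0.97 ± 0.21, and its targets Cebpg and Chac1 by 1.33 ± 0.22 and 1.49 ± 0.33. Dnajb9, a chaperone cofactor of the endoplasmic reticulum, stood at 9.14, 9.02 and 8.63 in WT and 10.31, 10.17 and 10.11 in E2f8 KO, higher by 1.27 ± 0.17 (adjusted p = 0.000606) and by 1.46 (adjusted p = 0.0287) with the covariate. Of 22 heat shock and chaperone genes 7 rose and 0 fell (median 0.50). The number that rose was 2 and 3 without WT replicate 2 or 3, 3 without E2f8 KO replicate 2 and 4 with arrays centred on the erythroid reference. Hsp90aa1, the inducible HSP90, rose by 1.37 ± 0.23 and Dnajb1, an HSP70 cofactor, by 1.64 ± 0.25. Among 26 antioxidant genes 6 rose and 3 fell, and 3 rose without WT replicate 2 or E2f8 KO replicate 1 or 2, and 2 without E2f8 KO replicate 3, and 5 fell with arrays centred on the erythroid reference. Gsr, glutathione reductase, rose by 1.35 ± 0.20 and Gpx4, which protects membrane lipids, by 1.03 ± 0.20. Cat, catalase, stood at 13.93, 14.09 and 14.04 in WT and 13.10, 13.05 and 12.93 in E2f8 KO, a fall by 0.99 ± 0.11 (adjusted p = 0.000258) and by 1.25 (adjusted p = 0.00822) with the covariate. Hmox1, which breaks down heme in macrophages, fell by 1.35 ± 0.30, and its difference was 0.29 with the covariate.

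Of 21 cholesterol genes 5 rose and 1 fell (0 fell without WT replicate 1 or 2 or E2f8 KO replicate 1 or 2). Insig1, the sterol sensor that restrains SREBP, had signals of 8.47, 8.50 and 7.90 in WT and 10.64, 10.49 and 10.63 in E2f8 KO. It was 4.91-fold higher (2.30 ± 0.19, adjusted p = 4.94e-05) and passed the test with the covariate, at 2.49. Sqle and Fdft1, enzymes of squalene synthesis and oxidation, rose by 1.70 ± 0.32 and 1.23 ± 0.19, and Stard4, a sterol carrier, by 1.56 ± 0.20. The median of the cholesterol list was 0.11, and 0.04 and 0.07 without WT replicate 2 or E2f8 KO replicate 3.

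Of 25 ribosomal protein genes, 5 fell and 1 rose (median -0.25, and 2 fell without WT replicate 2 or E2f8 KO replicate 1, against 10 with arrays centred on the erythroid reference). Rps28 and Rps14 fell by 0.69 ± 0.13 and 0.55 ± 0.12, and Rps27l, a p53-induced paralog, rose by 1.22 ± 0.27. Ribosomal protein genes have many near-identical pseudogenes, so these probe sets may read several transcripts. Of 37 proteasome genes 6 rose and 3 fell, with 13 higher without WT replicate 1 and 3 higher without each other array. It was 13 higher and 1 lower with arrays centred on their medians. Psma7 and Psmc3, of the core and the cap, rose by 1.20 ± 0.21 and 0.88 ± 0.18. Psmb8, the immunoproteasome subunit of leukocytes, fell by 1.53 ± 0.30. Of 18 aminoacyl-tRNA synthetase genes 4 rose (8 without WT replicate 1 and 7 with arrays centred on their medians), Cars by 1.07 ± 0.22 and Gars by 1.09 ± 0.24 among them.

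Oxidative phosphorylation had 0 of 36 members higher and 5 lower (3 and 2 lower without WT replicate 1 or 2, 2 without each E2f8 KO array and 2 with arrays centred on their medians). The share lower was near the 14.2% of all genes, and the list median was 0.0008. Uqcrc2, a core subunit of complex III, fell by 0.62 ± 0.14. With the covariate 5 members were called lower as well. Glycolysis had 6 of 22 lower and 0 higher (1 higher without WT replicate 1 and 2 with arrays centred on their medians or quantile-normalized), among them Pfkp, a phosphofructokinase, by 1.20 ± 0.27. Ribosome biogenesis had 4 of 36 higher, a share near the 11.9% of all genes, and 1 lower. The number higher was 1 with arrays centred on the erythroid reference, 1 without WT replicate 2 or 3, and 2, 1 and 0 without E2f8 KO replicate 1, 2 or 3. The number lower was 4 without WT replicate 3 and 0 without each other array. Of 22 interferon response genes 8 fell and 2 rose (median -0.31). The number that fell was 3 without WT replicate 2 and 5 without E2f8 KO replicate 3, and the number that rose was 1 without WT replicate 2 or 3 or E2f8 KO replicate 1 or 2, or with arrays centred on the erythroid reference. Xaf1 fell by 1.48 ± 0.32 and the chemokine gene Cxcl10 rose by 1.17 ± 0.18.

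Outside the lists, the largest changes named other genes. Of the 20 genes that rose most without overlap, 7 are granulocyte markers, and of the 20 that fell most, 11 are B cell markers. The limit given above for the granulocyte list may apply to some of those 7. Mybl1, a relative of Myb, stood at 7.91, 7.03 and 7.94 in WT and 10.02, 10.22 and 10.28 in E2f8 KO, 5.84-fold higher (2.55 ± 0.31, adjusted p = 0.000371). Ephx3, an epoxide hydrolase gene, read 5.12, 5.40 and 5.29 in WT and 7.50, 7.75 and 7.32 in E2f8 KO. It lay below the filter level of 5.84 in WT and Rb KO and was tested only because other groups were high, so its values are a description. Klf5, a Krüppel-like factor, rose by 2.12 ± 0.27, Tjp1, of tight junctions, by 2.24 ± 0.26, and the circadian gene Per1 by 2.15 ± 0.29. Pla2g2d, a secreted phospholipase gene of lymphoid organ dendritic cells, stood at 10.56, 10.79 and 10.42 in WT and 7.52, 7.33 and 7.33 in E2f8 KO, 9.17-fold lower (adjusted p = 4.38e-06). Pla2g2d also passed the test with the covariate, at -2.39.

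Of 88 microRNA genes tested, 9 rose (10.2%, against 11.9% of all genes) and 1 fell (1.14%, against 14.2%), and the first of these shares is near that of all genes. The 9 include Mir18, whose limit is given below. Mir106b in WT (mean 5.81) and Mir16-1 in Rb KO (mean 5.43) also lay below the filter level of 5.84. These genes were tested in part because other groups were high, so the count of rises is a description. Mature sequences from RefSeq (GRCm38.p6) are shown for 3 of the 9, with the seed (bases 2 to 8) in capitals, because the first 2 share a seed and a locus on chromosome 14.
mmu-miR-15a-5p (chr14:61632075-61632096, minus strand): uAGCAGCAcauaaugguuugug
mmu-miR-16-5p (chr14:61631936-61631957, minus strand): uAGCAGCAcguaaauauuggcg
mmu-miR-18a-5p (chr14:115043867-115043889, plus strand): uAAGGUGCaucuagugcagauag
The Mir15a probe set stood at 8.13, 7.27 and 8.48 in WT and 9.96, 10.52 and 10.09 in E2f8 KO, higher by 2.23 ± 0.33 (adjusted p = 0.00108), and Mir16-1 rose by 0.90 ± 0.18. With the covariate neither was called (1.15 and 1.15, adjusted p = 0.318 and 0.091). Mir18, of the cluster that E2F factors and Myc switch on, stood at 5.41, 5.65 and 5.48 in WT and 7.0001, 7.39 and 7.12 in E2f8 KO, and Mir17hg, the host transcript of that cluster, at 5.15, 5.49 and 5.32 against 6.57, 6.41 and 6.67. Both lay below the filter level in WT and Rb KO and were tested only because other groups were high, so their values are a description. The probe sets are annotated to the microRNA genes and the amounts of the mature microRNAs are not shown by them.

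The same label difference can be read in other arrays, those labelled DKO against those labelled Rb KO, which share no array with the comparison above although the fit gives all of them one estimate of the spread. Replicate 3 of DKO had the same unusual sex-linked signals as replicate 3 of E2f8 KO (Xist 3.99, Eif2s3y 7.82), so both comparisons hold 1 such array on the same side. In that comparison 19.5% of genes were higher and 17.6% lower. Of the genes higher in E2f8 KO against WT, 1367 (88.6%) were also higher in DKO against Rb KO, which is 54.0% of the risers there. Of those lower, 1543 (83.6%) were also lower, 67.4% of the genes that fell there. Opposite calls were made in 2 and 2 genes. All 17 B cell markers were lower in each comparison. MHC class II genes had 7 and 8 of 8 lower, with medians of -2.17 and -4.03. Granulocyte markers had 10 of 18 higher in E2f8 KO against WT and 4 in DKO against Rb KO, where the list averaged 6.69, 7.75 and 9.94 in the DKO arrays and 6.63 to 6.75 in Rb KO. Late maturation had 16 of 33 lower and 5 higher in DKO against Rb KO, and mitosis 38 of 44 higher and 1 lower. Of the 20 largest rises 14 were called higher there and of the 20 largest falls all 20 were called lower. Ngp was not among the former (1.46, adjusted p = 0.0798).

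The difference between these differences, the interaction of both labels, was called in 10 genes (0.077%). Rb1 and E2f8 were not among them, at 0.82 ± 0.16 (adjusted p = 0.158) and 0.08 ± 0.27 (adjusted p = 0.966). Ephx3 differed by 2.25 in E2f8 KO against WT and by 0.82 in DKO against Rb KO, and the p53-induced receptor gene Eda2r by 2.08 and 4.33. Both genes lay below the filter level in WT and Rb KO, so their interaction is a description. The other 8 genes are given in the closing section.

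**Figure D5:**
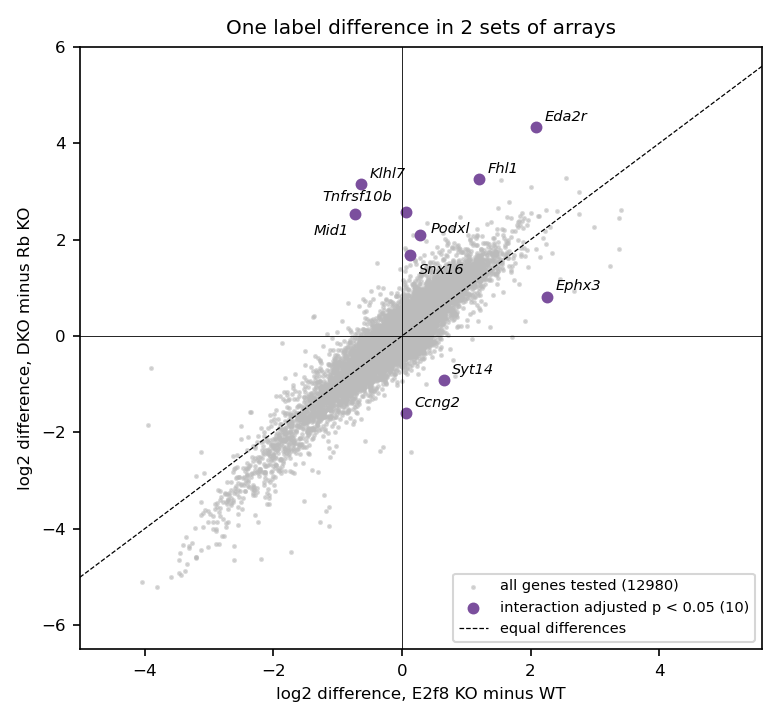
Log2 difference of DKO minus Rb KO against that of E2f8 KO minus WT for each of 12980 genes, with the 10 genes of the interaction in purple and the line of equal differences dashed. Klhl7 and Mid1 lie above 0 in DKO against Rb KO and below 0 in E2f8 KO against WT.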

How the data were processed

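Each array is an Affymetrix array of total RNA. The deposited table gives 1 value per probe set and array, and its values, from 1.0678 to 14.8423, were taken as log2 signals from their range, since the authors' scale is not stated. MAS5 is named in the submitters' processing notes, with no version. Array medians lay between 6.22 and 6.35. Genes came from GEO's platform annotation and RefSeq. Of 35557 probe sets 21789 named 1 gene, 1621 several and 12147 none. The 40% of probe sets with the lowest mean (up to 5.84) were left out, and the brightest probe set stood for a gene. The mean was taken over all 12 arrays, so a gene low in some groups could be tested because others were high. 12 called genes had another probe set of the opposite sign.

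limma 3.58.1 in R 4.3.3 (lmFit, eBayes with a trend) was fitted to all 12 arrays with 1 coefficient per label, 2-sided, with Benjamini-Hochberg adjustment over 12980 genes. It was tested on simulated data. Rose and fell mean an adjusted p under 0.05. Values after ± are standard errors. The labels call the arrays biological replicates, and p-values measure the spread between these samples only. Precision is limited by how few arrays there are.

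The comparison and the 40 gene lists were chosen with earlier results of these data known. The naming rule took the E2F, pocket protein and DP family, the 20 largest changes each way without overlap, per list the 4 genes of smallest p, and up to 4 members of erythroid and cell cycle lists that changed most against their list's median. It gave 204 genes, and only a part of them is described in the text. H2-Eb1, Spic, Lyz2, Slc4a1, Gata1, Klf1, Tfrc, Pcbp1, Riok3, Rnf11, Fbxo9, Bnip3l, Cdc25a, Cdkn2d, Cdc7, Cdk1, Ndc80, Aurkb, Ccng1, Mdm2, Atf4, Chac1, the microRNA genes other than Mir15a, the globin genes, the neighbours of Vars, the sex-linked genes and the interaction genes fall outside this rule and were picked with their values in view. Alternatives were other filters, normalizations, centrings, probe set rules, variance models, a replicate block, a B cell covariate, the compared groups alone, each array left out and stricter thresholds.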

Additional observations from a re-analysis of the deposited data

Results flagged for a closer look

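In 10 genes the difference between the E2f8 labels in the Rb KO and DKO arrays departed from that in the WT and E2f8 KO arrays (interaction in limma, adjusted p under 0.05). Since the Rb1 and E2f8 signals did not follow the labels, these are differences between groups as labelled.

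Tnfrsf10b, a death receptor gene, differed by 0.06 in E2f8 KO against WT and by 2.58 in DKO against Rb KO, an interaction of 2.53 ± 0.23 (adjusted p = 0.000465). Eda2r differed by 2.08 and 4.33, with an interaction of 2.25 ± 0.28. It lay below the filter level in WT and Rb KO, as did Ephx3, and both are described without a test. Klhl7 had differences of -0.63 and 3.15 (interaction 3.78 ± 0.33, adjusted p = 0.000465), and without WT replicate 3 its first difference was called, at -0.79. Mid1 had differences of -0.73 and 2.53 (interaction 3.26 ± 0.40). Fhl1 rose in both, by 1.20 and 3.26 (interaction 2.06 ± 0.28). Podxl and Snx16 differed by 0.28 and 0.13 in E2f8 KO against WT and by 2.10 and 1.68 in DKO against Rb KO (interactions 1.82 ± 0.26 and 1.55 ± 0.21).

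In the other direction, Ephx3 differed by 2.25 and 0.82 (interaction -1.44 ± 0.21). Ccng2 differed by 0.07 and -1.60 (interaction -1.67 ± 0.25). Syt14 differed by 0.65 and -0.91 (interaction -1.56 ± 0.23), and its first call was lost without E2f8 KO replicate 1 (0.57, adjusted p = 0.0596).

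The number of interaction calls depended on single arrays. It was 2 and 5 without WT replicate 1 or 3, 4 and 6 without E2f8 KO replicate 1 or 2, 49 and 4 without Rb KO replicate 1 or 2, and 20 and 6 without DKO replicate 1 or 2.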

How the results depend on the processing

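Against 3388 genes called in E2f8 KO against WT, array weights gave 6649, the B cell covariate 300, an adjusted p under 0.01 gave 1410 and a difference of at least 1 gave 1481, and leaving out 1 array gave 1531 to 3651. For DKO against Rb KO, with 4819 called, the covariate gave 527, an adjusted p under 0.01 gave 3082 and a difference of at least 1 gave 2168, and leaving out 1 array gave 3423 to 5789. The 10 interaction calls became 6 with the lowest 60% of probe sets removed, 1 with arrays centred on the erythroid reference, 59 with array weights, 51 with the covariate and 4 at an adjusted p under 0.01, and leaving out 1 array gave 2 to 49. The cause of these changes was not tested, apart from the stricter thresholds.

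With the B cell covariate, list medians turned to -0.54 for heme synthesis, -0.33 for membrane, -0.045 for erythroid transcription factors, 0.26 for early progenitor, -0.12 for the E2F family, -0.14 for replication, -0.075 for mitosis, -0.048 for DNA damage, -0.29 for histone, 0.14 for BCL2 family, -0.21 for antioxidant, -0.060 for proteasome, 0.062 for interferon, 0.51 for plasma cell, 0.89 for MHC class II, -0.13 for mast cell, -0.042 for megakaryocyte and -0.34 for erythroid reference genes. With arrays centred on the erythroid reference they turned to -0.026 for heme synthesis, -0.018 for membrane, -0.16 for erythropoietin receptor, -0.13 for antioxidant, -0.13 for cholesterol, -0.13 for megakaryocyte and -0.13 for erythroid reference genes. The BCL2 family median was 0.034 with arrays centred on their medians, and the mast cell median was -1.28 with the lowest 60% removed. The megakaryocyte median ran from -0.048 without WT replicate 1 to 0.16 without WT replicate 3, and was -0.027 without E2f8 KO replicate 3. Through these settings 142 genes were followed, which do not include all of the 204 that the naming rule gave. Those of the 142 that turned with the B cell covariate were Bcl2 (0.20), Cdk1 (-0.0018), Cpox (-0.18), Epor (-0.041), Fcer2a (0.29), H2-Eb1 (3.46, called), Hmox1 (0.29), Irf4 (0.13), Pecam1 (0.26), Pfkp (0.29), Rrm2 (-0.021) and Slc2a1 (0.35). Fcer2a is itself on the B cell list, whose mean is the covariate. Of the 142 genes, 83 others lost their call with it, 1 gained one and 46 did not change. Among genes of the rule that were not followed, Brca1 (-0.010), Bcl11a (0.82) and Bank1 (0.058) also turned.

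The replicate block gave 3493 calls and changed the call of 0 of the 142 genes followed. Arrays with the same number in WT and E2f8 KO had deviations that correlated at -0.322, 0.075 and -0.256. Pairs of unlike number ran from -0.217 to 0.427. Deviations sum to 0 over the arrays of a label, so these values cannot tell whether a shared number means anything.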

Other observations

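Vars, the valyl-tRNA synthetase gene, and D17H6S56E-5, its neighbour on chromosome 17, rose in E2f8 KO. They and the genes around them were chosen after the values were seen. Vars stood at 8.59, 10.30 and 8.18 in WT, at 10.90, 10.91 and 11.03 in E2f8 KO, at 8.51, 8.67 and 8.42 in Rb KO and at 8.57, 9.17 and 8.82 in DKO. D17H6S56E-5 stood at 7.58, 9.69 and 6.73 in WT, at 10.57, 10.57 and 10.86 in E2f8 KO, at 7.80, 7.27 and 6.83 in Rb KO and at 8.21, 8.35 and 8.12 in DKO. In both genes WT replicate 2 lay nearest to the E2f8 KO arrays. Of the other neighbours, Hspa1a had a difference of 1.86 ± 0.56 (adjusted p = 0.0286 in limma), with 10.49 in E2f8 KO replicate 2 against 7.66 and 7.71 in the other E2f8 KO arrays. Without that array it was 0.92 (adjusted p = 0.0322), and its call was lost without WT replicate 1, 2 or 3 (0.0539, 0.0967 and 0.0608). Lsm2 and Msh5 were higher by 1.22 and 0.72. Clic1 had a difference of 0.79 (adjusted p = 0.0508), called without WT replicate 2 (1.03, adjusted p = 0.0359). Vwa7, Sapcd1 and Ddah2 had differences of 0.18, 0.12 and 0.19.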
